A study of Homo sapiens with 6 samples.

Results

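PMP2, the gene for myelin protein P2, and 5 of its relatives, FABP3, FABP4, FABP5, FABP6 and FABP7, were followed by RNA sequencing in melanoma cells that had received a SOX10 expression plasmid. These 6 genes were taken by symbol from the 23368 genes of the table. PMP2 is the gene named by the study, and the others were added as its paralogs. 2 of the 6, PMP2 and FABP5, had enough reads for a test, and 4 did not. The cells were 1205Lu, an established human line from a metastatic melanoma. One group of 3 flasks was transfected with pCMV6-SOX10 and the other group of 3 flasks with the empty vector pCMV6, with 7.8 µg of plasmid per flask and lysis 24 h later. SOX10 was thus added to cells that already transcribe their own SOX10 gene, and both groups went through transfection. The transfection was transient, so each library averages cells that took up the plasmid with cells that did not. How many cells took it up is not stated in the labels. In such bulk RNA, more expressing cells and more RNA per cell cannot be told apart. The study asks whether SOX10 regulates PMP2 in melanoma.

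Fatty acid binding proteins are small proteins of the cytosol that hold long-chain fatty acids, and in the case of FABP6 bile acids, inside a barrel of beta strands. They carry these water-insoluble ligands to membranes, enzymes and nuclear receptors, among them the PPAR receptors. Each member is known for a tissue. PMP2 is a protein of peripheral myelin made by Schwann cells, FABP3 is the form of heart and muscle, FABP4 that of adipocytes and macrophages, FABP5 that of epidermis, FABP6 that of the ileum and FABP7 that of brain glia. SOX10 is a transcription factor of the neural crest that melanocytes and Schwann cells both need. PMP2, FABP4 and FABP5 lie on human chromosome 8, in a cluster with FABP9 and FABP12, while FABP3 is on chromosome 1, FABP6 on chromosome 5 and FABP7 on chromosome 6.

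The libraries were shallow and unequal. Reads assigned to genes numbered 2544420 to 4167393 in the pCMV6-SOX10 libraries and 867917 to 2066520 in the pCMV6 libraries, a ratio of the group means of 2.71. Markers of the labelled lineage were present in part. The summed level of 7 melanoma and neural crest markers was 700 to 843 CPM (reads of a gene scaled to a common library size by the TMM method) with pCMV6-SOX10 and 725 to 783 CPM with pCMV6, nearly all of it ERBB3 and S100B. The pigment genes MLANA, TYR, DCT and PMEL had 4, 9, 6 and 19 reads over all 6 libraries. SOX10 itself had 81, 47 and 143 reads with pCMV6-SOX10 and 15, 18 and 44 with pCMV6. Its log2 fold change was 0.35 (SE 0.27), and the adjusted p was 0.927 in the quasi-likelihood test of edgeR. Counted SOX10 reads therefore did not separate the groups, and a count per gene does not tell plasmid reads from endogenous ones.

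PMP2 was the member that rose. Libraries of the pCMV6-SOX10 group held 66, 53 and 103 PMP2 reads, which is 17.7, 21.1 and 24.9 CPM. Libraries of the pCMV6 group held 0, 1 and 4 reads, which is 0, 1.15 and 1.95 CPM. The lowest of the SOX10-transfected libraries thus lay far above the highest control, and their exact 95% counting intervals were also apart, starting at 13.7 CPM in the one and ending at 4.99 CPM in the other. The means were 21.3 ± 3.64 CPM with pCMV6-SOX10 and 1.03 ± 0.98 CPM with pCMV6 (SD, n = 3 each). The log2 fold change of 3.99 (SE 0.49) amounts to 15.9-fold, and its 95% confidence limits were 7.90 and 31.9. The adjusted p by edgeR was 0.000103. Of all 10678 genes tested, 0.112% were called at an adjusted p under 0.05, with 0.00937% higher and 0.103% lower in SOX10-transfected cells. PMP2 had the largest log2 fold change of them and rank 3 by p. The next largest rise of any tested gene was 2.47 on the log2 scale, that of EFHD1. After the filter on low counts, only 2 tested genes had no more control reads than PMP2, namely PMP2 itself and EFHD1. The rank and the gap therefore hold among genes that the filter kept, with almost none so low in the controls.

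**Figure D1:**
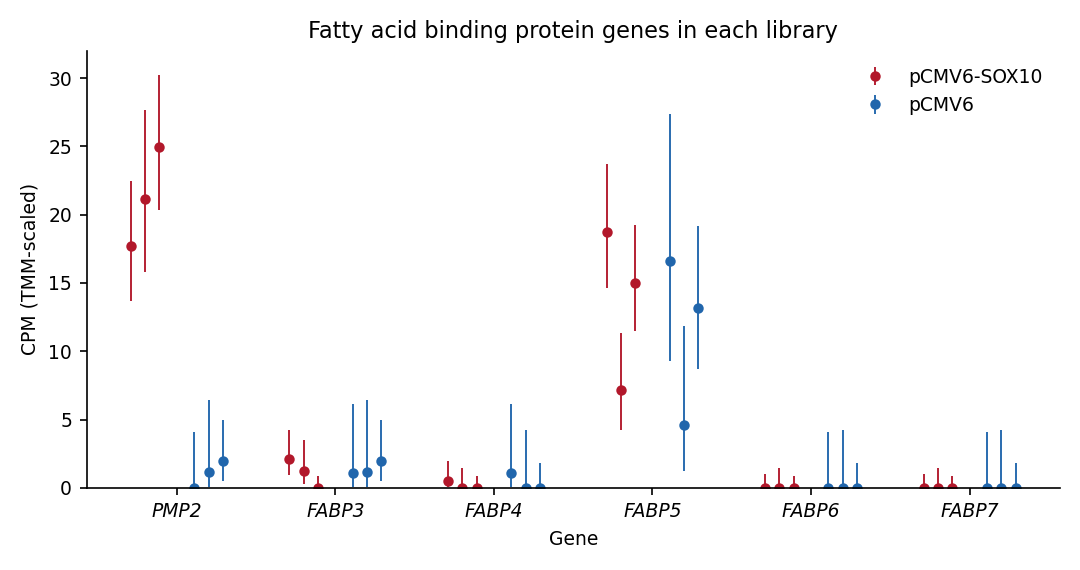
Level of each of the 6 genes in CPM, scaled by TMM, in the 3 pCMV6-SOX10 libraries (red, left) and the 3 pCMV6 libraries (blue, right), with exact 95% Poisson intervals of the read counts. PMP2 stands at 17.7 to 24.9 CPM with pCMV6-SOX10 and at 0 to 1.95 CPM with pCMV6, FABP5 overlaps between groups, and the other 4 genes are at or near 0.

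The size of the PMP2 rise is limited by its few control reads. With all libraries of a group added up, 222 reads stood against 5, a ratio of 16.4 with an exact 95% interval from 6.91 to 50.9 that covers counting error only. At the level of the SOX10-transfected libraries, the depth of the controls would have given 81.8 reads. Control replicate 3 held 4 of the 5 control reads and 53.5% of the assigned reads of the controls, and the exact interval of its share of PMP2 reads ran from 28.4% to 99.5%. Without control replicate 3 the log2 fold change was 5.12, or 34.7-fold, and the call held. It also held when each library was thinned read by read to the smallest one, with an adjusted p of 0.000618, and was lost when thinCounts of edgeR, which removes reads with replacement, did the thinning, with an adjusted p of 0.234. PMP2 passed the filter on low counts through the SOX10-transfected libraries alone, so among the tested genes it had to be higher there. With every gene of at least 1 read in the test, its log2 fold change was 4.01 with an adjusted p of 1.53e-12 by edgeR. In that fit 13 of 20538 genes were called higher and 35 lower, so PMP2 was not the only gene called higher there. Among 1202 other genes that passed the filter and had 0.8 to 1.2 times the reads of PMP2, log2 fold changes ran from -1.79 to 1.84. Their median was -0.0079.

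**Figure D2:**
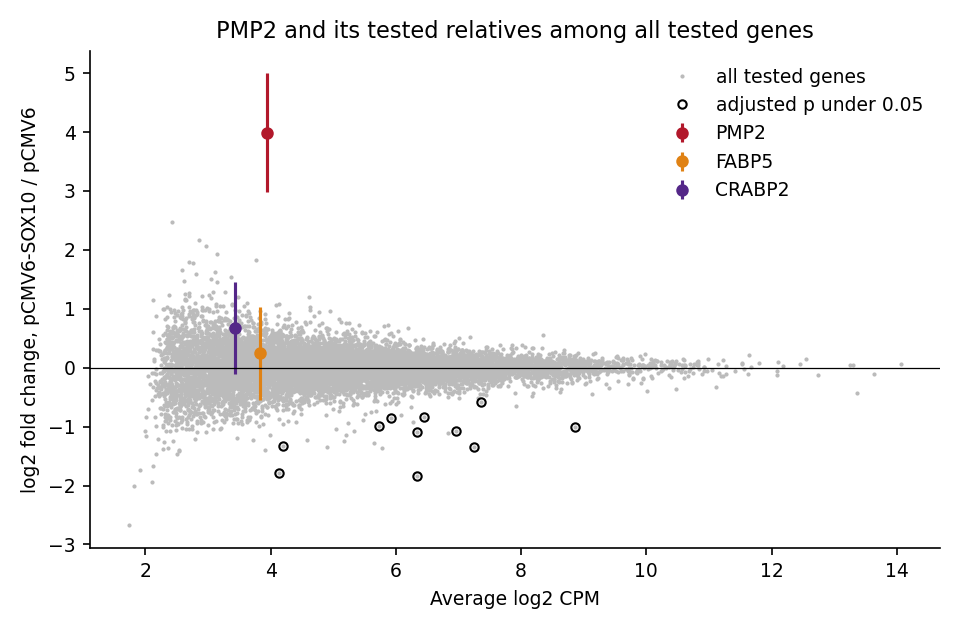
Log2 fold change of pCMV6-SOX10 over pCMV6 against average log2 CPM for all 10678 tested genes (grey), with the 12 genes past an adjusted p of 0.05 ringed and 95% confidence intervals on PMP2, FABP5 and CRABP2. PMP2 lies at 3.99, away from the cloud of genes of like abundance, while the intervals of FABP5 and CRABP2 reach 0.

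Within the SOX10-transfected group, PMP2 varied by 1 SD of 3.64 CPM around 21.3 CPM. The chi-square per degree of freedom against equal levels was 2.43, on only 2 degrees of freedom. Whether the spread exceeded counting noise was not tested. SOX10 reads did not order these libraries in the same way. PMP2 reads per 100 SOX10 reads were 81.5, 113 and 72.0 with pCMV6-SOX10 and 0, 5.56 and 9.09 with pCMV6. SOX10 replicate 3 had the most PMP2 and the most SOX10, but SOX10 replicate 2 had more PMP2 than SOX10 replicate 1 at a lower SOX10 level, 18.7 against 21.7 CPM. To place PMP2 among other genes, CPM were divided by the length of all exons of each gene in GENCODE release 29, which was available for 91.3% of tested genes. On this scale PMP2 stood at 5.89 ± 1.01 CPM per kilobase with pCMV6-SOX10 and 0.29 ± 0.27 with pCMV6 (SD, n = 3 each). It lay above 43.4% to 54.5% of tested genes in the SOX10-transfected libraries and above 0% to 2.41% of them in the controls. No exonic base of PMP2 belonged to another gene in that annotation.

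FABP5, the epidermal form, was the most abundant member in control cells, in reads and per kilobase of exon. It had 70, 18 and 62 reads, or 18.7, 7.18 and 15.02 CPM, with pCMV6-SOX10. With pCMV6 it had 15, 4 and 27 reads, or 16.6, 4.61 and 13.2 CPM. The groups overlapped throughout, and the libraries numbered 2 were the lowest of each group. Means were 13.6 ± 5.90 CPM with pCMV6-SOX10 and 11.5 ± 6.17 CPM with pCMV6 (SD, n = 3 each). The log2 fold change was 0.24 (SE 0.38), for which edgeR gave an adjusted p of 0.957. The 95% confidence interval of the fold ran from 0.68 to 2.04, so changes of FABP5 within that range are not excluded. The smallest change that could have been called was not computed. The sign turned without SOX10 replicate 1, at -0.039, and without control replicate 2, at -0.044. FABP5 varied more among its replicates than PMP2 did in the SOX10-transfected libraries. Its chi-square per degree of freedom was 7.01 with pCMV6-SOX10 and 2.87 with pCMV6.

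Reads of FABP5 may be shared with its copies. GENCODE release 29 lists 14 pseudogene copies of FABP5. One of them, FABP5P3, has a row in the table, with 1 read in all. Reads that align to more than one place made up 17.7% to 19.1% of all counted records and enter no gene, so the FABP5 level is uncertain, and how far the copies lowered it was not tested. The 7 keratinocyte markers summed to 73.9 to 94.5 CPM with pCMV6-SOX10 and to 71.5 to 78.5 CPM with pCMV6, mostly DSP. Of the 2 that were tested 0 were called, beside 0.112% of all tested genes, so 0 calls say little about these markers. A long noncoding gene shares 4.53% of the exonic bases of FABP5.

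The other members were rare or unread. FABP3, the heart and muscle form, had 8, 3 and 0 reads with pCMV6-SOX10 and 1, 1 and 4 with pCMV6. Its pooled ratio was 0.68, with an exact interval from 0.23 to 2.23 for counting error only, and its groups overlapped. FABP4, the adipocyte form, had 2, 0 and 0 reads with pCMV6-SOX10 and 1, 0 and 0 with pCMV6. FABP6 and FABP7, the forms of ileum and of brain glia, had 0 reads in each of the 6 libraries. A count of 0 over a whole group allows up to 0.29 CPM with pCMV6-SOX10 and up to 0.78 CPM with pCMV6, so FABP7 or FABP6 RNA below these levels was not detectable. Of the cells that carry FABP4, 7 adipocyte markers summed to 4.28 to 8.48 CPM with pCMV6-SOX10 and to 1.95 to 5.77 CPM with pCMV6, with CIDEA at 0. The 7 macrophage markers summed to 194 to 489 CPM with pCMV6-SOX10 and to 256 to 624 CPM with pCMV6. Of these, CD68 had 5465 reads, while CD14, CD163, MRC1, CSF1R, AIF1 and TYROBP had 1 to 32 each. The 7 endothelial markers summed to 32.7 to 45.1 CPM with pCMV6-SOX10 and to 31.1 to 42.0 CPM with pCMV6. Here too 0 of the 2 that were tested were called, beside 0.112% of all tested genes.

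The make-up of the family therefore differed between groups. PMP2 took 45.2%, 71.6% and 62.4% of the reads of the 6 genes in the pCMV6-SOX10 libraries. It took 0%, 16.7% and 11.4% in the pCMV6 libraries. The 2 sets did not overlap, although the exact 95% interval of control replicate 2, which rests on 6 reads, reached 64.1%. These shares do not depend on how libraries are scaled. The other 5 members together stood at 21.4, 8.38 and 15.02 CPM with pCMV6-SOX10 and at 18.8, 5.77 and 15.1 CPM with pCMV6, and these ranges overlapped. On the per-kilobase scale PMP2 at 5.89 ± 1.01 was close to FABP5 at 6.57 ± 2.84 in SOX10-transfected cells. That closeness depends on the lengths used, 3608 bases for PMP2 and 2077 for FABP5. They count all annotated exons of a gene, not those of a single transcript. FABP5 also lacks reads that align to several places, so which RNA was more abundant is uncertain. In control cells PMP2 was at 0.29 ± 0.27 and FABP5 at 5.51 ± 2.97 on the same scale (SD, n = 3 each).

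The difference between the responses of PMP2 and FABP5 was tested within libraries. The log2 ratio of PMP2 to FABP5 reads, with 0.5 added to each count, was -0.084, 1.53 and 0.73 with pCMV6-SOX10 and -4.95, -1.58 and -2.61 with pCMV6. All 3 SOX10-transfected libraries lay above all 3 controls. The difference of the means was 3.78, and an exact two-sided permutation test over libraries gave p = 0.10, the smallest that 3 against 3 can reach.

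**Figure D3:**
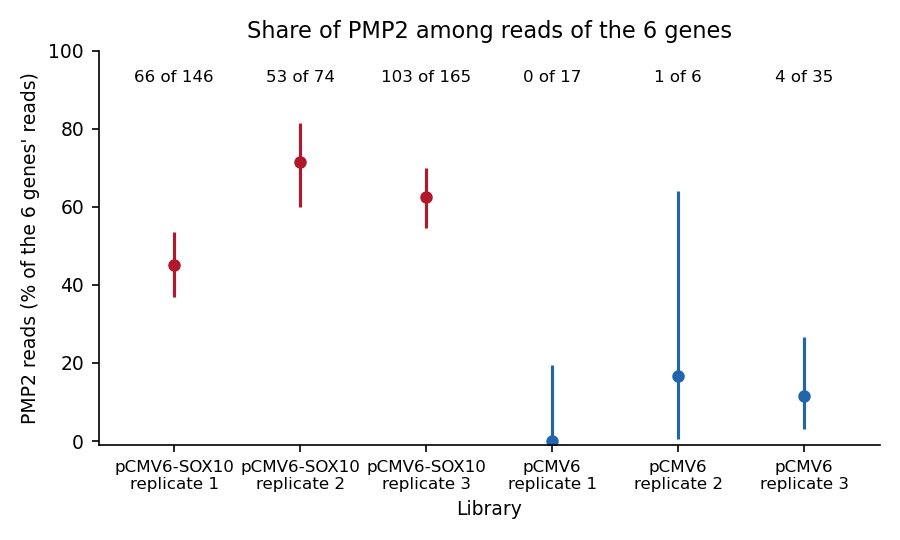
PMP2 reads as a percent of the reads of the 6 genes in each library, with exact 95% binomial intervals and the read numbers above. The pCMV6-SOX10 libraries (red) stand at 45.2% to 71.6% and the pCMV6 libraries (blue) at 0% to 16.7%.

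PMP2, FABP5 and FABP4 have neighbours on chromosome 8 that were compared to see whether the whole stretch moved. In the order of RefSeq, the list holds ZBTB10, ZNF704, PAG1 and FABP5 on one side of PMP2 and FABP9, FABP4, FABP12, IMPA1, SLC10A5, ZFAND1, CHMP4C and SNX16 on the other. Of these 12 genes 7 were tested and none was called by edgeR, with 1 at an unadjusted p under 0.05, which 6.23% of all tested genes also reached. Their median log2 fold change was 0.046, against 0.0076 for all tested genes. FABP9, the direct neighbour of PMP2 and the testis form of the family, had 0 reads in all libraries, and FABP12 had 2.

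ZNF704, a zinc finger gene 3 places from PMP2, had 54, 32 and 59 reads with pCMV6-SOX10 and 9, 8 and 9 with pCMV6. Its means were 13.8 ± 0.93 CPM with pCMV6-SOX10 and 7.86 ± 3.02 CPM with pCMV6 (SD, n = 3 each), and the groups did not overlap, as for 5.72% of all tested genes in this direction. The log2 fold change was 0.96 (SE 0.37), for which edgeR gave an adjusted p of 0.669. SNX16, a sorting nexin of endosomes at the far end, had 0.66 (SE 0.41) with an adjusted p of 0.885. PAG1 and FABP5, which lie between ZNF704 and PMP2, had -0.27 (SE 0.27) and 0.24 (SE 0.38). IMPA1, an inositol phosphatase beyond FABP12, had -0.0067 (SE 0.21). Of the 7 tested neighbours 4 had a positive and 3 a negative log2 fold change. In 3 of the 7 the groups did not overlap, with ZNF704 and SNX16 higher and ZBTB10 lower with pCMV6-SOX10. In either direction this held for 1255 of all 10678 tested genes.

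**Figure D4:**
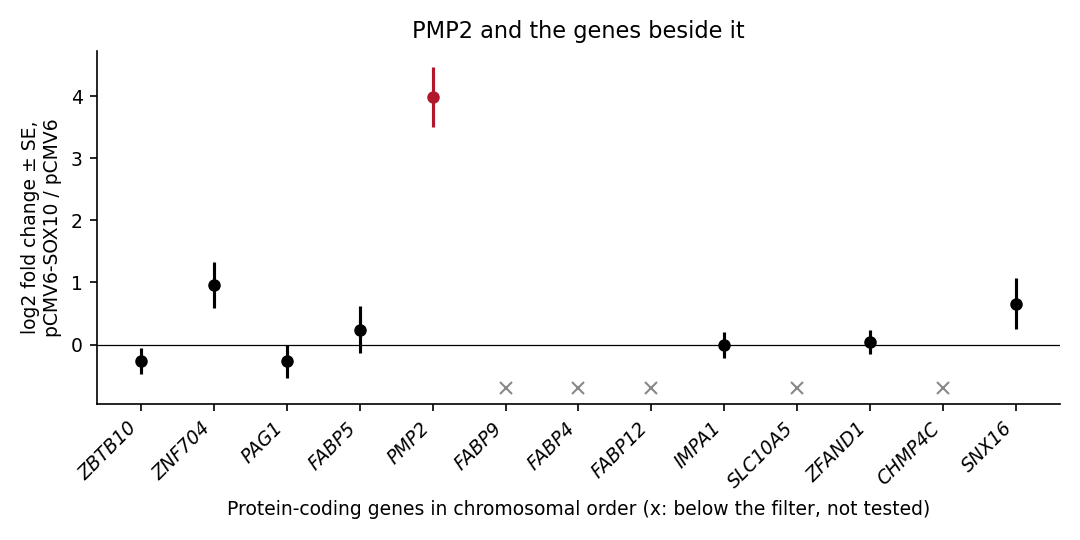
Log2 fold change ± SE of pCMV6-SOX10 over pCMV6 for PMP2 (red) and the protein-coding genes beside it, in chromosomal order, with crosses for genes below the filter. PMP2 stands at 3.99, and the 7 tested neighbours lie between -0.27 and 0.96.

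Beyond the members, the family includes further fatty acid carriers and the carriers of retinol and retinoic acid. Of 10 such genes 7 had a read and only CRABP2 was tested. CRABP2, which delivers retinoic acid to its nuclear receptors, had 44, 24 and 50 reads with pCMV6-SOX10 and 4, 8 and 15 with pCMV6. In CPM these were 11.2 ± 1.38 with pCMV6-SOX10 and 6.99 ± 2.42 with pCMV6 (SD, n = 3 each). The groups did not overlap, as for 5.72% of all tested genes in this direction, and the log2 fold change of 0.67 (SE 0.38) had an adjusted p of 0.871 by edgeR. FABP2, FABP9 and CRABP1 had 0 reads.

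Genes that supply fatty acids to the carriers or receive them were counted next, against a background of 0.112% of all tested genes called and 6.23% at an unadjusted p under 0.05, so that lists of this size would hold about 0 calls. Among 10 genes of fatty acid uptake 5 were tested. By edgeR 0 rose, 0 fell and 0 reached an unadjusted p under 0.05, and the median log2 fold change was 0.0092. GOT2, a mitochondrial enzyme also known as a fatty acid binding protein of the plasma membrane, had 0.10 (SE 0.12), and the transporter SLC27A1 had -0.30 (SE 0.55). CD36, the scavenger receptor for fatty acids, was below the filter with 30 reads. Among 9 nuclear receptors 7 were tested. Here too 0 rose, 0 fell and 0 reached an unadjusted p under 0.05, and the median was -0.028. RXRA, the shared partner of these receptors, had 0.27 (SE 0.17), and the retinoic acid receptor RARA had -0.34 (SE 0.22). PPARG, which FABP4 is known to serve in adipocytes, stood at 10.4 ± 2.55 CPM with pCMV6-SOX10 and 10.7 ± 2.60 CPM with pCMV6 (SD, n = 3 each).

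Among 10 known targets of the PPAR receptors 6 were tested and 0 rose and 0 fell by edgeR, with 0 at an unadjusted p under 0.05 and a median of 0.011. The peroxisomal enzyme catalase (CAT) had 0.21 (SE 0.16), and the lipid droplet protein PLIN2 had -0.19 (SE 0.22). Among 10 other carriers and lipases 9 were tested, 0 rose and 0 fell. Their median was 0.11, and 1 of them reached an unadjusted p under 0.05, beside 6.23% of all tested genes. That gene was ABHD5, the activator of the lipase PNPLA2, at 61.7 ± 2.88 CPM with pCMV6-SOX10 and 78.7 ± 3.89 CPM with pCMV6 (SD, n = 3 each). Its log2 fold change was -0.35 (SE 0.15), for which edgeR gave an adjusted p of 0.717. The sterol carrier SCP2 had 0.42 (SE 0.25) with an adjusted p of 0.882. DESeq2 and limma-voom also called 0 genes in each of these lists, beside 11 and 8 of all 10678 genes. DESeq2 gave no adjusted p for SLC27A1.

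The tested genes whose profile over the 6 libraries came closest to that of PMP2 were PGM2L1, a relative of the phosphoglucomutases, PRSS35, a protein related to serine proteases, IL17RD, an inhibitor of FGF signalling, PDGFD, a growth factor of the PDGF family, and FAT4, an atypical cadherin. Likeness was the root mean square distance between log2 CPM profiles, each centred on its own mean and computed with a prior count of 2. It was 1.05 for PGM2L1 and 1.13 for FAT4, against a median of 1.94 over 10677 genes, 1.96 for FABP5 and 1.93 for a flat profile. FAT4 had 48, 53 and 71 reads with pCMV6-SOX10 and 4, 4 and 10 with pCMV6, with a fitted log2 change of 1.84 (SE 0.38) at an adjusted p of 0.0514 by edgeR. PRSS35 had 36, 20 and 32 reads with pCMV6-SOX10 and 1, 3 and 3 with pCMV6. All were chosen for likeness to PMP2 over the same 6 libraries, so rises with pCMV6-SOX10 follow from the choice. The 5 genes had log2 fold changes of 1.503 to 2.16, and none passed the test. Without control replicate 3 these values were 2.98 for PGM2L1, 2.48 for IL17RD, 2.07 for PDGFD, 1.89 for FAT4 and 1.88 for PRSS35. PRSS35 was thus lower than with all libraries, FAT4 nearly the same, and again none passed the test. The ranking is loose for genes of so few reads. With a prior count of 0.5, only 1 of the 5, PGM2L1, was among the nearest 5.

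**Figure D5:**
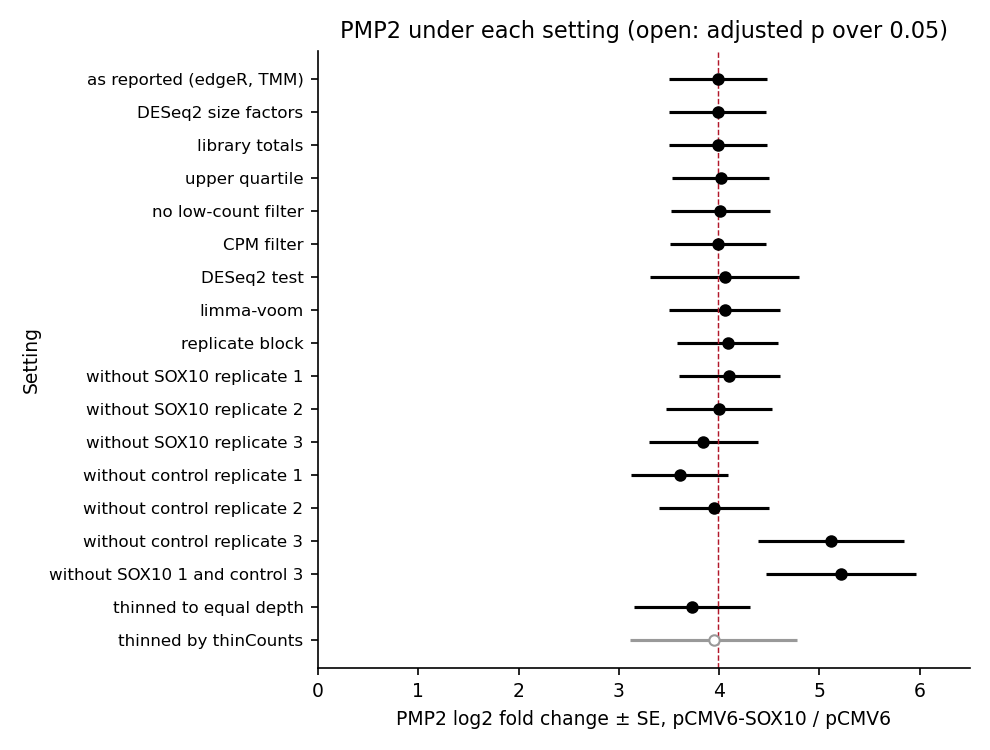
Log2 fold change ± SE of PMP2, pCMV6-SOX10 over pCMV6, as reported (top and dashed line) and under 17 other settings, with filled points for an adjusted p under 0.05. Values run from 3.61 to 5.22, with the highest where control replicate 3 was left out, and the open point is thinning with the thinCounts function.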

How the data were processed

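Per the labels' protocols, each library started from 125 ng of total RNA and was built with the Encore Complete system of NuGEN. Per the submitters' processing notes, TopHat 1.4.0, HTSeq and DESeq were used with hg19. The annotation, strand setting and overlap mode of the counting were not given in the sources used here. Deposited by the authors were raw read counts per gene symbol, 1 column per library, matched to samples by title. The 5 class rows that name no gene were left out, and of them reads outside genes made up 39.4% to 46.9% of all counted records. The labels do not say what separates the replicates beyond calling them biological. Within groups, every pair of libraries differed beyond sampling noise (chi-square per degree of freedom 1.98 to 6.50).

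All 6 libraries were fitted in R 4.3.3 with edgeR 4.0.16 and its quasi-likelihood test, scaled by TMM, without covariates, on the 10678 genes that filterByExpr kept (minimum count 10, minimum total 15). The Benjamini-Hochberg adjustment ran over these genes, and the threshold was 0.05. Standard errors come from the F statistic. Counting intervals and limits of a count of 0 (3 reads) cover counting error only. The test was checked on simulated data with the same spread beyond counting noise for every gene. Only genes above a minimum of reads were changed there. That check does not cover genes that differ in spread or have very few reads.

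Alternatives were 3 other scalings, 2 other filters, DESeq2 1.42.0, limma-voom (limma 3.58.1), the replicate number as a block, leaving out libraries, and thinning to 867917 reads. Thinning was first run with thinCounts of edgeR, then read by read, and both are reported. Named genes are the members, SOX10, 2 tested genes per list (those of smallest p), and the 5 profiles nearest to PMP2. Any other gene was named with its values in view. The members and lists were chosen with earlier results of these data known. Lengths and gene order are from GRCh38 annotation, which differs from hg19, so coordinates are not printed. Some genes of the lists are not reported here.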

Additional observations from a re-analysis of the deposited data

How the results depend on the processing

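PMP2 was called higher with every scaling, filter and test tried and without any single library, and no other member was called in any of these. Its log2 fold change ran from 3.61 to 5.12 without single libraries, and was 5.22, or 37.2-fold, without SOX10 replicate 1 and control replicate 3 together, which had the lowest ratio of reads outside genes to assigned reads. Adjusted p-values ran from 1.53e-12 with no filter to 0.002 with limma-voom. The exception was thinning with thinCounts, the way of thinning that was run first. The read-by-read draw took its place as the planned setting after that result was seen. With thinCounts PMP2 had 3.95 with an adjusted p of 0.234 by edgeR, so that 0 members were called higher. Over 20 such draws PMP2 was called in 1, not called in 14 and not tested in 5, with a median of 4.12 and a median adjusted p of 0.251. That function draws the reads to remove with replacement. Over the draws the PMP2 reads left in SOX10 replicate 1 had an SD of 6.91, against 3.43 for binomial thinning by formula. Thinned read by read, PMP2 had 3.73 with an adjusted p of 0.000618, and was called in 20 of 20 draws, with log2 fold changes of 3.49 to 5.38. For FABP5 the sign turned to -0.039 without SOX10 replicate 1 and -0.044 without control replicate 2. PLIN2 turned to 0.51 with thinCounts. FAT4 passed the threshold with library totals, with no filter, with the CPM filter and without SOX10 replicate 1. The difference between PMP2 and FABP5 ran from 2.82 to 4.51 without single libraries.

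Same-numbered libraries did not deviate together (r of -0.030, -0.033 and -0.14 across genes), so the numbers were not taken as pairs. With the number as a replicate block, PMP2 had 4.08 with an adjusted p of 0.00178, FABP5 0.26, and 7 genes were called in place of 12. Over all genes, calls numbered 6 to 18 without single libraries and 48 with no filter. A single read was worth 0.24 to 1.15 CPM.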
